A study of Mus musculus with 12 samples.

Results

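Cells at day 3, the end of a phase of BMP2 alone, were compared with the same line at 0 h, before BMP2 was added. These are 4 of the 12 libraries of the series, 2 per time point, chosen by their time labels alone. The cells are MTΔECad, a mesenchymal mouse breast cancer line whose name marks E-cadherin as lost, and RNA sequencing followed them through a fat cell differentiation protocol. Libraries were collected at 0 h, 6 h and days 3, 5, 7 and 10, with 2 biological replicates each from independent experiments. Per the labels' protocols, the day 3 cells had been given 200 ng/ml of human recombinant BMP2 for 3 days, and no rosiglitazone. The 0 h cells had been seeded at 20000 cells per cm2 and left overnight, without BMP2. Later cells received BMP2 with 2 µM rosiglitazone for 4 days and then rosiglitazone alone for 3 days. All groups are the same line, which limits the comparison to this 1 cell background. No untreated cells cultured for 3 days were used here, so BMP2, time in culture, cell density and medium cannot be told apart.

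BMP2 is a secreted growth factor of the TGF-beta family. It binds paired receptor kinases at the cell surface, which phosphorylate the receptor-regulated SMAD proteins. These enter the nucleus with SMAD4 and switch on a set of direct targets, among them the Id genes, which encode inhibitors of helix-loop-helix transcription factors, and inhibitory SMADs that feed back on the receptors. In mesenchymal precursor cells BMP2 is known both for driving bone and cartilage formation and for committing cells to the fat lineage.

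The 4 libraries held 13904510 and 13175402 counts at day 3 and 12820802 and 15211035 counts at 0 h. The replicates correlated at 0.992 for day 3 and 0.9946 for 0 h over log2 CPM (counts per library total, scaled by TMM). Of genes with a mean of at least 10 CPM in the group, 197 of 8677 (2.27%) lay at least 1.5-fold apart between the 2 day 3 libraries, against 30 of 8752 (0.343%) between the 0 h libraries. The first principal component over all 12 libraries held 78.5% of the variance and the second 13.2%. On the first, the day 3 libraries stood at -37.69 and -40.27, between those of 0 h (-132.18 and -126.79) and day 10 (129.06 and 127.35). On the second, they stood at 87.87 and 90.54, above all others. Malat1, an abundant nuclear noncoding RNA, took 3.01% and 3.02% of counts at day 3 and 0.52% and 0.564% at 0 h. The leukocyte genes Ptprc and Itgax had 0 counts in all 4 libraries, and the endothelial gene Vwf had 0 and 0 counts at day 3 and 0 and 1 at 0 h. Other endothelial genes went both ways on few counts. Tek had 10 and 10 counts at day 3 and 0 and 0 at 0 h. Cdh5 had 0 and 0 counts at day 3 and 11 and 8 at 0 h. Sums were taken over listed markers with counts in the series, tested or not. The 13 leukocyte and macrophage markers (24 listed, 3 tested) summed to 9.84 and 8.49 CPM at day 3. At 0 h they summed to 12.0 and 11.7 CPM. The 13 endothelial markers (19 listed, 9 tested) had 22.2 and 23.7 CPM at day 3, against 33.4 and 36.7 CPM at 0 h. The 14 muscle markers (19 listed, 10 tested) had 192 and 144 CPM at day 3, against 204 and 212 CPM at 0 h. Their part in the results was not tested.

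Of 12740 genes tested, 8682 (68.1%) were called at an adjusted p below 0.05, with 4220 (33.1%) higher at day 3 and 4462 (35.0%) lower. At least a 2-fold change was called for 3464 genes (27.2%), 1769 (13.9%) higher and 1695 (13.3%) lower. With upper-quartile scaling in place of TMM the split was 4856 higher and 3930 lower. The median log2 fold change over all genes tested was 0.0, and the middle 90% of genes lay between -2.24 and 2.3. The libraries of the 2 times did not overlap for 10590 of the genes tested (83.1%), so a lack of overlap is common here and says little of any 1 gene. So large a share of called genes is the background against which each gene list below is read. The plot of listed genes shows where the lists departed from it.

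**Figure D1:**
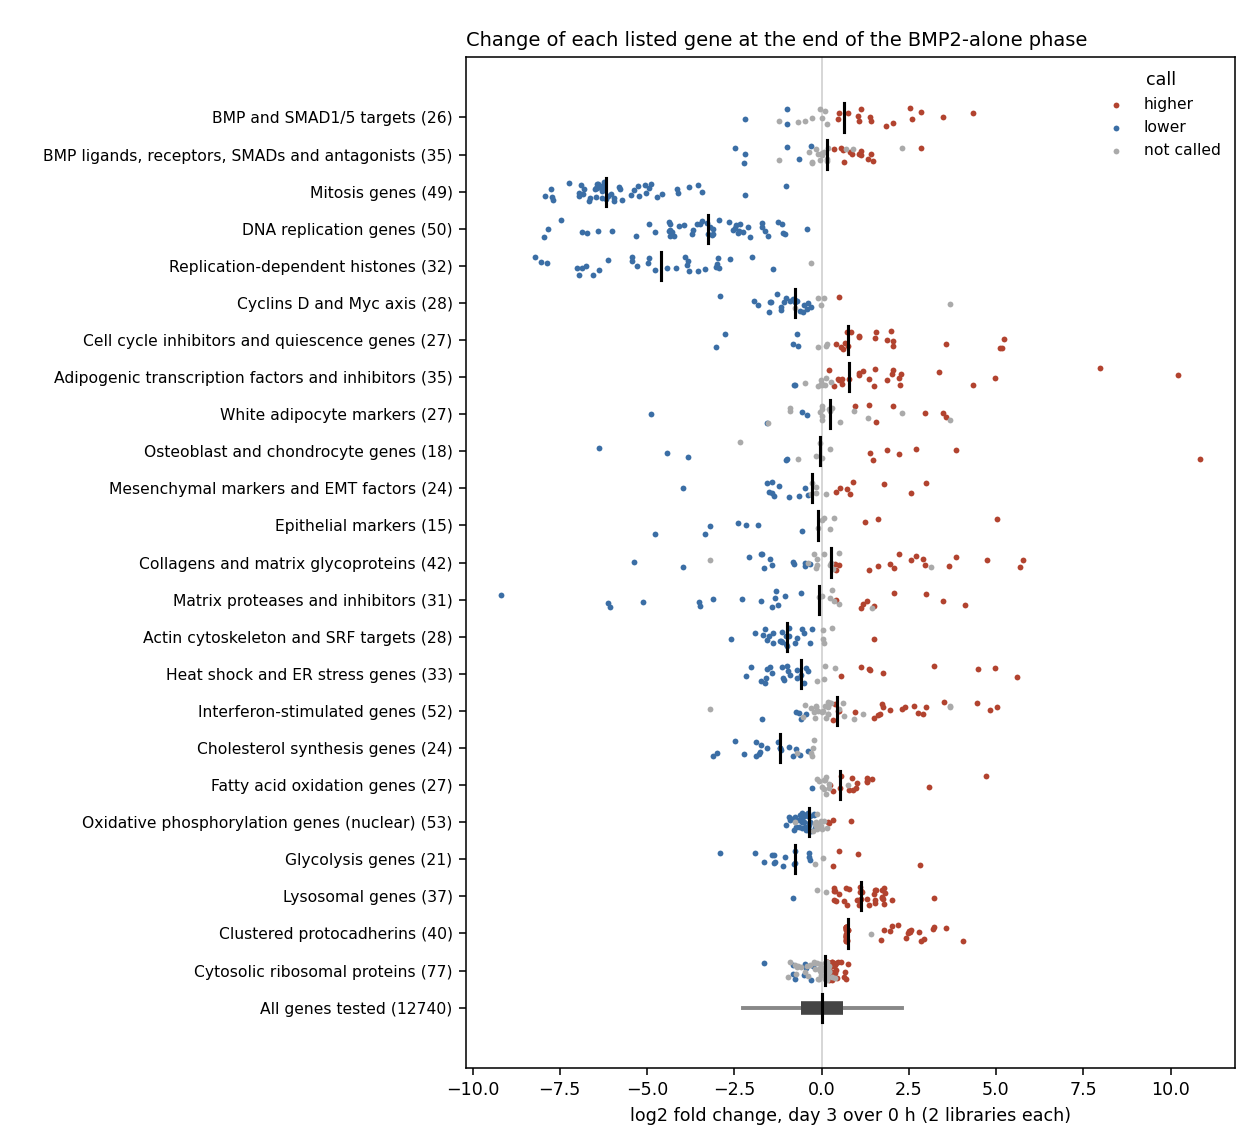
Log2 fold change of each tested member of 24 gene lists, day 3 over 0 h, with the number of members tested in brackets. Red points were called higher at day 3, blue points lower and grey points not called, and the black bar is the list's median. The bottom row gives the median, the middle 50% and the middle 90% of all 12740 genes tested. Mitosis, DNA replication and histone genes lie far to the left, and lysosomal genes and clustered protocadherins to the right.

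Listed targets of BMP signalling were more often called higher at day 3 than genes at large. Of 38 listed targets 26 were tested, and 15 were called higher (57.7%, against 33.1% of all genes) and 3 lower, with a median log2 fold change of 0.63 against 0.0 over all genes. Smad6, which encodes an inhibitory SMAD specific to BMP receptors, had 48.8 and 46.0 CPM at day 3 against 5.73 and 7.36 CPM at 0 h. Atoh8, a helix-loop-helix factor and BMP target, had 68.7 and 69.9 CPM at day 3 against 12.2 and 11.7 CPM at 0 h. Id2 had 282 and 236 CPM at day 3 against 72.8 and 72.4 CPM at 0 h. Both day 3 libraries lay above both 0 h libraries for all 3 genes. Their log2 fold changes were 2.84 (SE 0.13, adjusted p = 4.55e-12) for Smad6, 2.53 (SE 0.11, adjusted p = 3.61e-12) for Atoh8 and 1.84 (SE 0.087, adjusted p = 1.07e-11) for Id2. In bulk RNA, fewer cells of a kind and less RNA per cell cannot be told apart, here or for the genes that follow.

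The other Id genes were also called higher. Id1 had 78.8 and 71.4 CPM at day 3 and 37.5 and 35.1 CPM at 0 h, a log2 fold change of 1.05 (SE 0.086, adjusted p = 1.21e-08). Id3 had 84.2 and 60.6 CPM at day 3 and 44.9 and 41.4 CPM at 0 h, a log2 fold change of 0.75 (SE 0.13, adjusted p = 0.000294). For both, the day 3 libraries lay above those of 0 h. Id4 rose by 3.49 (SE 0.46) on 36 and 37 counts at day 3 and 5 and 1 at 0 h. Smad7, an inhibitory SMAD shared by BMP and TGF-beta signalling, rose by 1.08 (SE 0.071), Junb by 1.42 (SE 0.09) and the Notch and BMP target Hey1 by 2.6 (SE 0.27). Zfp423, a zinc finger factor that amplifies BMP signals in fat precursors, had 16 and 10 counts at day 3 and 1 and 0 at 0 h, a ratio of 25 (95% exact counting interval 4.11 to 1030.0). The homeobox genes Msx1 and Msx2, also BMP targets in many tissues, were not called higher. Msx1 had 3.68 and 3.68 CPM at day 3 and 3.6 and 3.71 CPM at 0 h (adjusted p = 0.981), and Msx2 fell by 0.98 (SE 0.24, adjusted p = 0.00167). Nog and Fst, antagonists of BMPs and activins, were the other targets that fell.

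The 6 h libraries, also under BMP2 alone, divide these targets by time, as the plot of BMP-responsive genes shows. Id1 averaged 36.3 CPM at 0 h, 74.6 at 6 h and 75.1 at day 3, and day 3 against 6 h gave a log2 fold change of 0.01 (adjusted p = 0.93). Smad7 likewise gave -0.01 (adjusted p = 0.926) between day 3 and 6 h, and Id3 gave 0.22 (adjusted p = 0.158). Smad6, Atoh8 and Id2 were higher at day 3 than at 6 h, by 1.29 (adjusted p = 1.67e-08), 0.94 (adjusted p = 2.34e-07) and 0.67 (adjusted p = 1.85e-06). Day 3 against 6 h gave 8713 called genes (68.4%), 4190 higher and 4523 lower. Among the BMP targets 9 were called higher at day 3 than at 6 h and 8 lower. Both comparisons use the day 3 libraries, so their counts are not independent.

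**Figure D2:**
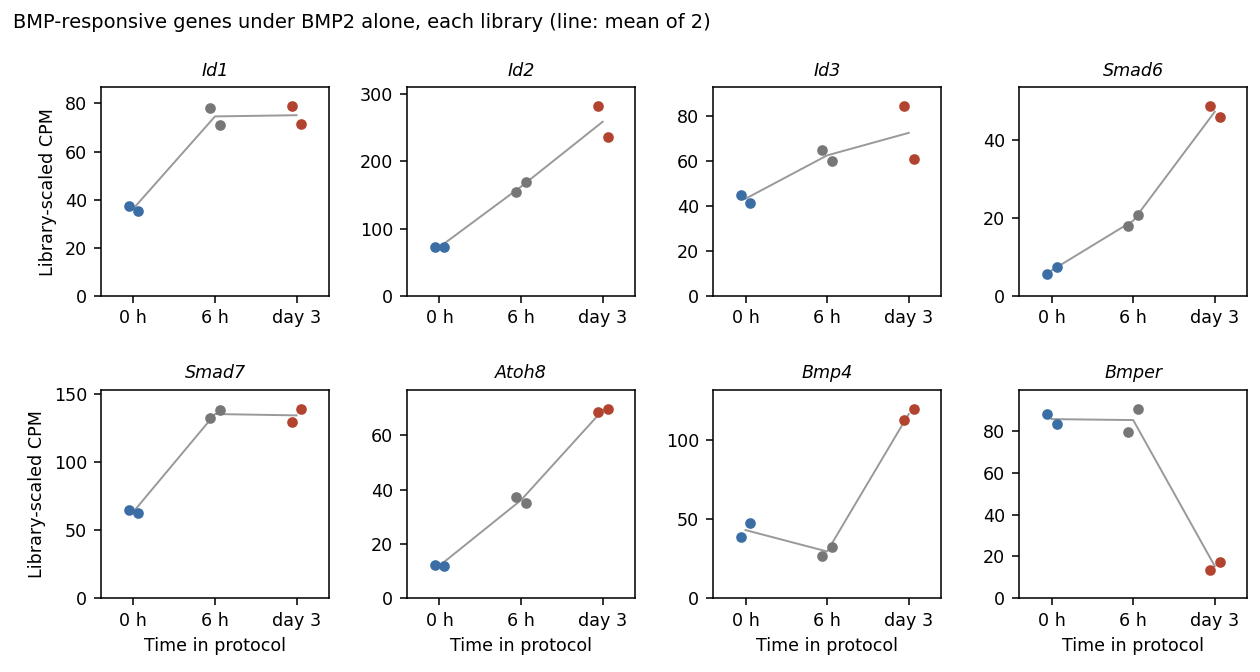
Library-scaled CPM of 8 genes at 0 h, 6 h and day 3, with 1 point per library and a line through the mean of 2; axes start at 0. Id1 and Smad7 stand at a similar level at 6 h and day 3, Smad6, Atoh8, Id2 and Bmp4 are highest at day 3, and Bmper is low only at day 3 of these 3 times.

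Id2 is shown by its promoter because it had the most counts among the BMP targets tested. The 250 bases before its start in RefSeq (GRCm38.p6, chr12:25096093-25096342, minus strand) hold 1 match to the GC-rich SMAD element GGCGCC, in capitals, at 231 to 226 bases before the start.
Id2: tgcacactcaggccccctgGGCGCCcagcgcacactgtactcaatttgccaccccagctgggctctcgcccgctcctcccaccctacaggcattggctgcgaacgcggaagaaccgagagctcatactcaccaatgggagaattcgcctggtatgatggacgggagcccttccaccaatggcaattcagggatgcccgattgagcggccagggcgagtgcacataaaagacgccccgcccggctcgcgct
Searched on both strands, this element lay in 6 of 18 promoters of BMP targets in the RefSeq table (33.3%), against 16.6% of promoters of tested genes and 9.59% of all promoters in the table. Promoters were found for 14 of the target genes. A match is a description of these letters and not a measured site.

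BMP ligands, receptors, SMADs and antagonists were mixed. Of 52 listed genes 35 were tested, and 13 were called higher (37.1%, near the 33.1% of all genes) and 6 lower (17.1%, against 35.0%). Some genes are in this list and in that of BMP targets. Among these, Smad6, Smad7 and Chrdl1 count as higher in both, and Nog and Fst as lower in both. The median was 0.17, and lay between 0.1 and 0.32 with a library left out. Bmp4, the 1 BMP ligand called higher, had 113 and 120 CPM at day 3, against 38.6 and 47.5 CPM at 0 h, and rose by 1.43 (SE 0.11, adjusted p = 3.4e-09). The activin subunit gene Inhba had 6.67 and 8.75 CPM at day 3, against 33.9 and 37.9 CPM at 0 h, and fell by 2.22 (SE 0.14, adjusted p = 4.64e-10). The receptor genes Bmpr1a, Bmpr2 and Acvr1 rose by 0.63 (SE 0.078), 0.82 (SE 0.19) and 0.86 (SE 0.15), with no overlap between the groups' libraries. Bmper, a secreted BMP binding protein, fell to 13.5 and 17.1 CPM at day 3, against 88.2 and 83.1 CPM at 0 h (log2 fold change -2.49, SE 0.13, adjusted p = 9.22e-11). Noggin, encoded by Nog, fell by 2.19 (SE 0.37, adjusted p = 5.97e-05) on 8 and 7 counts at day 3 and 30 and 37 at 0 h. Antagonists did not all fall: Chrdl1 was called higher at 1.13. Crim1 rose by 0.35 (SE 0.12, adjusted p = 0.0207), a call lost without 0 h replicate 1 (adjusted p = 0.132). Smad9 and the antagonist gene Grem1 had too few counts to be tested, with 5 and 2 counts of Grem1 at day 3 and 0 and 0 at 0 h. Bmp2 itself was not analysed here.

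Genes of the sister TGF-beta branch went both ways, with more called higher than lower. Of 27 tested, 14 were called higher (51.9%, against 33.1% of all genes) and 8 lower (29.6%, against 35.0%). The median was 0.28, and lay between 0.26 and 0.3 with a library left out. Tgfb1 and the receptor gene Tgfbr1 rose by 0.72 (SE 0.18) and 1.13 (SE 0.12), and Tgfb2 had 28.3 and 22.0 CPM at day 3 and 24.5 and 26.9 CPM at 0 h (adjusted p = 0.88). Among the targets, Fn1, the fibronectin gene, rose. It had 110037 and 191542 counts at day 3 and 18228 and 31587 counts at 0 h, a log2 fold change of 2.57 (SE 0.46, adjusted p = 0.00242). Tgfbi, a matrix protein induced by TGF-beta, rose by 2.96 (SE 0.35).

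Cell division genes fell as a whole. All 49 mitosis genes tested were called lower at day 3 (against 35.0% of all genes), with a median log2 fold change of -6.18. All 50 DNA replication genes were called lower, with a median of -3.26, and so were 31 of 32 replication-dependent histone genes, with a median of -4.6. The exception, H3c4, had a log2 fold change of -0.3 and was not called. Summed over the list, mitosis genes stood at 476 and 390.0 CPM at day 3 against 12100.0 and 11700.0 CPM at 0 h. Both day 3 sums lay below both 0 h sums.

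Mki67, the proliferation marker, had 14.4 and 7.96 CPM at day 3 against 988 and 1010.0 CPM at 0 h (log2 fold change -6.47, SE 0.25, adjusted p = 1.81e-08). Top2a, the topoisomerase that untangles chromosomes, had 40.3 and 26.5 CPM at day 3 against 1510.0 and 1460.0 CPM at 0 h (log2 fold change -5.47, SE 0.17, adjusted p = 7.75e-11). The groups lay far apart for both, while the 2 day 3 libraries differed from each other more than those of 0 h did. Plk1, a mitotic kinase, had 11 and 7 counts left at day 3 against 1766 and 1849 at 0 h. Birc5, which encodes survivin, had 11 and 6 counts at day 3 against 1907 and 2103 at 0 h. The kinetochore genes Bub1 and Nuf2 fell by 7.71 (SE 0.19) and 7.76 (SE 0.18). With so few counts left at day 3, the size of these falls carries more counting error than their SEs show.

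Among replication genes, the origin licensing factor Cdc6 had 8 and 9 counts at day 3 against 931 and 1004 at 0 h, and fell by 6.87 (SE 0.18, adjusted p = 7.33e-15). Rrm1, a subunit of ribonucleotide reductase, fell by 3.7 (SE 0.077) and the single-strand binding protein gene Rpa1 by 1.53 (SE 0.069). The thymidine kinase gene Tk1 and the atypical E2F factors E2f7 and E2f8, which repress cell cycle genes, fell by 7.83 (SE 0.24), 7.47 (SE 0.29) and 7.94 (SE 0.24). The mildest fall in the list was that of Rfc1, a clamp loader subunit, at 0.41. Histone genes with the largest falls were H3c3 (8.2, SE 0.21), H3c2 (8.04, SE 0.17) and H3c8 (7.88, SE 0.2). Their sequences are near-identical, so reads may be shared between copies and the split between them is uncertain. Replication-dependent histone transcripts normally lack a poly-A tail, and the labels name both a total RNA kit and poly-A+ RNA. Beyond the lists, the nuclease genes Eme1 and Ankle1 and the helicase gene Pif1 were among the 15 largest falls. Ankle1 had 0 and 1 counts at day 3 against 177 and 223 at 0 h, a ratio of 415 (95% exact counting interval 74.1 to 16500.0). Eme1 had 2 and 1 counts at day 3 against 364 and 415 at 0 h, a ratio of 270.0 (92.0 to 1310.0).

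**Figure D3:**
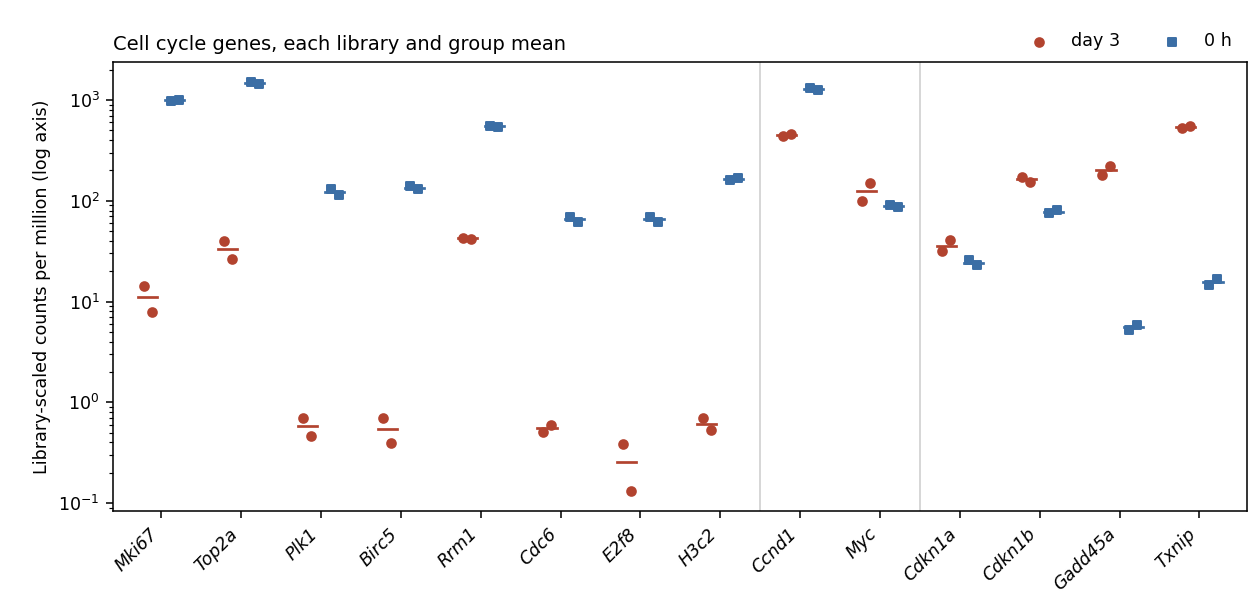
Library-scaled CPM on a log axis for 14 cell cycle genes, with day 3 libraries (red circles) left of 0 h libraries (blue squares) and a bar at each group's mean. The first 8 genes, of mitosis, replication and histones, are lower at day 3, Ccnd1 is lower and Myc higher, and the 4 genes on the right, cell cycle inhibitors and quiescence genes, are higher.

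Promoters of 3 of these genes are shown because their transcripts fell together and because their upstream bases hold both letters searched for in cell cycle promoters: the cell cycle homology region TTTGAA and the CCAAT box, CCAAT. Capitals mark both, on either strand, and no printed match overlaps another. The windows are the 250 bases before the start in RefSeq on GRCm38.p6: Top2a at chr11:99024190-99024439 (minus strand), Mki67 at chr7:135716380-135716629 (minus strand) and H3c2 at chr13:23752095-23752344 (plus strand).
Top2a: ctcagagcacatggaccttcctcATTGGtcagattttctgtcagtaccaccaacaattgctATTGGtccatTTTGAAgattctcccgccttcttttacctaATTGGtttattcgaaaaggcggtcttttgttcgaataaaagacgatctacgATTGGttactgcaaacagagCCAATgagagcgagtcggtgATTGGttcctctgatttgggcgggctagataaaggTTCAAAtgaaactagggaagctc
Mki67: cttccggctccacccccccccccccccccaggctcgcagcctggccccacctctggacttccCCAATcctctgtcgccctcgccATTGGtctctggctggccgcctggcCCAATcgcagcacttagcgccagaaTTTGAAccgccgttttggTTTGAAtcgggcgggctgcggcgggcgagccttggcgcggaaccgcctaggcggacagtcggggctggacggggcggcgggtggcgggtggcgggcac
H3c2: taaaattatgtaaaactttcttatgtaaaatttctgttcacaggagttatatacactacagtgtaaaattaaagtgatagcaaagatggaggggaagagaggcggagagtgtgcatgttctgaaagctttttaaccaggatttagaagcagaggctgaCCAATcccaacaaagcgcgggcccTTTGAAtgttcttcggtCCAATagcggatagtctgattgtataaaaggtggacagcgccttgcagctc
TTTGAA lay in 17 of 44 promoters of mitosis genes (38.6%), 12 of 30 histone promoters (40.0%) and 8 of 48 promoters of replication genes (16.7%), against 10.7% of promoters of tested genes and 16.0% of all 32851 promoters in the table. CCAAT lay in 79.5% of mitosis promoters, 86.7% of histone promoters and 56.2% of replication promoters, against 35.7% of promoters of tested genes and 33.8% of all. The E2F-like letters TTTCGCGC were in 5 of 48 promoters of replication genes (10.4%), 3 of 30 histone promoters (10.0%) and 1 of 44 mitosis promoters (2.27%), against 0.541% of promoters of tested genes and 0.256% of all. The related TTTGGCGC was in 3 of 48 replication promoters (6.25%), 0 of 30 histone promoters and 1 of 44 mitosis promoters (2.27%), against 0.792% of promoters of tested genes and 0.417% of all. Histone promoters lie in gene clusters and resemble each other, so they are not independent.

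Most genes of the D-type cyclin and Myc axis fell as well, and most listed inhibitor and quiescence genes rose. Of 28 D-type cyclin and Myc axis genes 22 were called lower (78.6%, against 35.0% of all genes) and 1 higher. The median was -0.75. That list also holds nucleolar and ribosome production genes such as Npm1, so its count is not one of cell cycle drivers alone. Ccnd1, the cyclin D1 gene, had 442 and 465 CPM at day 3, against 1330.0 and 1260.0 CPM at 0 h (log2 fold change -1.51, SE 0.12, adjusted p = 4.29e-08). Ccnd3 fell by 1.82 (SE 0.11), the polyamine enzyme gene Odc1 by 1.94 (SE 0.096) and Mycn by 2.92 (SE 0.25). Myc was the gene that rose, with 99.5 and 150.0 CPM at day 3 and 89.9 and 86.0 CPM at 0 h (log2 fold change 0.5, SE 0.14, adjusted p = 0.00821). That call was lost without 0 h replicate 2 (adjusted p = 0.0547) or day 3 replicate 2 (adjusted p = 0.115). Npm1, the nucleolar chaperone gene, fell by 0.82 (SE 0.073).

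Of 27 cell cycle inhibitor and quiescence genes 19 were called higher (70.4%) and 5 lower, with a median of 0.77. Gadd45a, a growth arrest and DNA damage gene, had 182 and 220.0 CPM at day 3 against 5.21 and 5.87 CPM at 0 h (log2 fold change 5.17, SE 0.13, adjusted p = 5.05e-15). Txnip, the thioredoxin-interacting protein gene, had 528 and 554 CPM at day 3 against 14.7 and 16.8 CPM at 0 h (log2 fold change 5.1, SE 0.13, adjusted p = 5.83e-15). Both libraries of day 3 stood well above those of 0 h for each. Trp53inp1, a p53 target, rose by 3.58 (SE 0.12). Of the kinase inhibitor genes, Cdkn1b (p27) rose by 1.06 (SE 0.074) and Cdkn1a (p21) by 0.57 (SE 0.13). Among those that fell were the inhibitors Cdkn2d (-3.02) and Cdkn2c (-0.81), the pocket protein gene Rbl1 (-2.78), Gadd45b (-0.71) and Ccng1 (-0.66, SE 0.075).

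Genes for cytosolic ribosomal proteins changed little. Of 77 tested, 27 were called higher (35.1%, near the 33.1% of all genes) and 9 lower (11.7%, against 35.0%). Of those called lower, 1 (Rpl27) fell by at least 2-fold. The median was 0.11, and with upper-quartile scaling the counts were 35 and 6. The 2 with the most counts, Rplp0 and Rpl4, had log2 fold changes of 0.13 (SE 0.073, adjusted p = 0.129) and 0.11 (SE 0.069, adjusted p = 0.187), and upper-quartile scaling called both. Rpl27 fell by 1.65 (SE 0.22) on 58 and 60 counts at day 3 against 176 and 179 at 0 h. Many of these genes have near-identical retrocopies, so their counts are uncertain.

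Transcription factors that promote or restrain the fat cell programme were mostly higher at day 3, before any rosiglitazone. Of 35 tested factors that promote or restrain adipogenesis, 24 were called higher (68.6%) and 2 lower, Klf5 (-0.8) and Ppard (-0.75), with a median of 0.78. The 24 include restraining factors such as Ddit3, and the list was not split by role. Pparg, the master nuclear receptor of adipogenesis, had 46.1 and 25.3 CPM at day 3 against 0.147 and 0.124 CPM at 0 h, on 2 and 2 counts. Both day 3 libraries lay above those of 0 h, and replicate 1 was higher than replicate 2. The log2 fold change was 7.97 (SE 0.57, adjusted p = 3.51e-06), and counting error on so few counts at 0 h is larger than this SE shows. Klf15, a zinc finger factor of fat and muscle metabolism, had 131 and 171 counts at day 3 and 0 and 0 at 0 h, a rise of at least 96.9-fold when 3 counts over the 0 h pair are taken as the floor.

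Cebpb, an early factor of adipogenesis, had 148 and 160.0 CPM at day 3 against 27.2 and 35.7 CPM at 0 h (log2 fold change 2.29, SE 0.14, adjusted p = 1.87e-08). Its partners Cebpd and Cebpa, the second of them a late factor, rose by 1.06 (SE 0.15) and 1.06 (SE 0.13). Ddit3, an inhibitory C/EBP factor also induced by stress, had 255 and 345 CPM at day 3 against 9.62 and 9.64 CPM at 0 h (log2 fold change 4.96, SE 0.15, adjusted p = 7.79e-12). For each of these genes the groups did not overlap. Nfib rose by 1.18 (SE 0.18) and the glucocorticoid receptor gene Nr3c1 by 0.35 (SE 0.071). Of the 35 tested, 4 had at most 3 counts at day 3 or at 0 h, and these passed the filter only through times or groups with more. With such genes at their bound or ratio, and those at or under 3 counts in both groups left out, the median was 1.06.

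Markers of finished fat cells went both ways, many on few counts. Of 27 white adipocyte markers tested, 7 were called higher (25.9%, against 33.1% of all genes) and 4 lower, and 16 were not called. Of the 27, 12 had 0 to 3 counts in a group and 9 were at or under 3 counts in both, so a change in these was not detectable at this depth. The median was 0.24, or 0.41 with few-count genes at their bounds, and lay between 0.0 and 0.55 with a library left out. In the fit of only the 4 libraries compared, 12 were tested and 7 called higher, with a median of 1.2. Fabp4, the fatty acid binding protein, had 1.84 and 1.32 CPM at day 3 and 1.32 and 1.42 CPM at 0 h (log2 fold change 0.2, SE 0.29, adjusted p = 0.563), so the groups overlapped. Adipoq, the adiponectin gene, had 1 and 1 counts at day 3 and 4 and 2 at 0 h (adjusted p = 0.173), and Plin1, which coats lipid droplets, had 2 and 2 counts at day 3 and 1 and 3 at 0 h. Lpl, the lipoprotein lipase gene, was among those that rose, with 331 and 295 CPM at day 3 against 23.4 and 28.6 CPM at 0 h (log2 fold change 3.58, SE 0.11, adjusted p = 3.22e-14). Plin4, another droplet coat gene, rose by 3.49 (SE 0.35) and the desaturase gene Scd1 by 1.57 (SE 0.34). Fasn, the fatty acid synthase gene, fell by 1.55 (SE 0.089).

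The plot of fat and bone genes over the protocol sets day 3 beside the later times. Mean Pparg was 0.135 CPM at 0 h, 35.7 CPM at day 3 and 339 CPM at day 10. Mean Lpl was 26.0 CPM at 0 h, 313 CPM at day 3 and 4070.0 CPM at day 10. Mean Cebpb was 31.4 CPM at 0 h, 154 CPM at day 3 and 193 CPM at day 10.

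**Figure D4:**
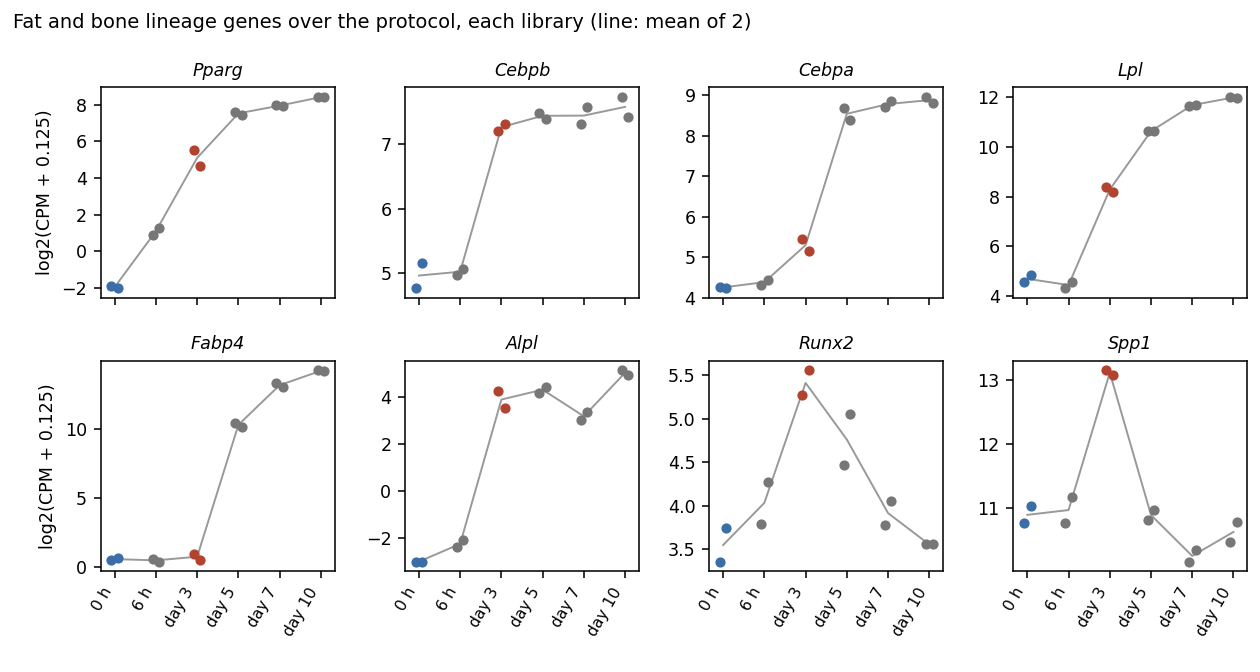
Log2 CPM, with a small constant added as labelled on the axis, of 8 fat and bone lineage genes at the 6 times, with 1 point per library (blue 0 h, red day 3, grey others) and a line through the mean of 2. Pparg, Cebpb, Lpl and Alpl are above 0 h at day 3, Fabp4 is not, and Runx2 and Spp1 have their highest values at day 3.

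Bone and cartilage genes, the other lineage that BMP2 is known for, went both ways. Of 18 tested of 36 listed, 7 were called higher (38.9%, near the 33.1% of all genes) and 5 lower (27.8%, against 35.0%). The median was -0.03, and in the fit of only the 4 libraries compared 3 were called lower. Alpl, the alkaline phosphatase gene of early osteoblasts, had 294 and 175 counts at day 3 and none at 0 h, a rise of at least 151-fold by the same floor. Runx2, the master factor of osteoblasts, had 38.4 and 46.9 CPM at day 3 against 10.1 and 13.2 CPM at 0 h (log2 fold change 1.87, SE 0.22, adjusted p = 1.49e-05). Sox9, the cartilage factor, rose by 1.48 (SE 0.2). The groups did not overlap for any of them. Spp1, which encodes osteopontin, had 143913 and 132419 counts at day 3 and 23503 and 33630 at 0 h (log2 fold change 2.23, SE 0.15, adjusted p = 4.29e-08). Mgp, a calcification inhibitor, rose by 3.86 (SE 0.75). The collagen gene Col1a1 had 1.91 and 2.89 CPM at day 3 and 2.35 and 2.97 CPM at 0 h (adjusted p = 0.659). The cartilage matrix gene Matn3 had no counts at day 3 and 12 and 8 at 0 h, at least 6.92-fold lower.

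The labels call these cells mesenchymal, and markers of that state and of the epithelial state each went both ways. Both lists had more genes called lower than higher. Of 24 mesenchymal markers and EMT factors 8 were called higher (33.3%, against 33.1% of all genes) and 11 lower (45.8%, against 35.0%). The median was -0.28. Vim, the vimentin gene, had 45746 and 30505 counts at day 3 against 99396 and 113963 at 0 h (log2 fold change -1.55, SE 0.13, adjusted p = 1.14e-07). Cdh2, the N-cadherin gene, fell by 0.64 (SE 0.07) and the matrix gene Tnc by 3.97 (SE 0.3). Acta2, smooth muscle actin, fell by 0.92 (SE 0.28, adjusted p = 0.0207), a call lost without 0 h replicate 1, 0 h replicate 2 or day 3 replicate 2 (adjusted p = 0.0695, 0.061 and 0.122). Pdgfra, the receptor that marks fat precursors, had 185 and 132 CPM at day 3 against 17.6 and 21.9 CPM at 0 h (log2 fold change 3.0, SE 0.22, adjusted p = 3.09e-06). The EMT factors Zeb1 and Zeb2 rose by 0.72 (SE 0.082) and 0.42 (SE 0.07). Snai1 (adjusted p = 0.331), Snai2 (adjusted p = 0.198) and Twist1 (adjusted p = 0.322) were not called.

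Cdh1, the E-cadherin gene, had 8 and 13 counts at day 3 and 6 and 11 at 0 h (adjusted p = 0.743), in overlapping groups. Of 15 epithelial markers tested of 30 listed, 3 were called higher, 7 lower and 5 not called, with a median of -0.1, or -0.33 with few-count genes at their bounds. The keratin gene Krt8 had 63.5 and 45.1 CPM at day 3 against 547 and 559 CPM at 0 h (log2 fold change -3.35, SE 0.15, adjusted p = 1.93e-09). Krt18, its partner, fell by 1.82 (SE 0.11), Krt7 by 2.15 (SE 0.2) and the basal keratin gene Krt14 by 2.4 (SE 0.29). Those that rose were Esrp2 (1.24), Grhl1 (1.61) and Epcam, which had 4 and 4 counts at day 3 and 0 and 0 at 0 h. Among 14 mammary luminal and milk genes 4 were called higher (28.6%, against 33.1% of all genes) and 3 lower (21.4%, against 35.0%). The milk fat enzyme gene Xdh rose by 3.98 (SE 0.1), with 713 and 599 CPM at day 3 against 39.7 and 43.4 CPM at 0 h. The iron-sequestering lipocalin gene Lcn2 had 297 and 367 counts at day 3 and 0 and 1 at 0 h, a ratio of 639 (95% exact counting interval 114 to 25300.0).

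Matrix and invasion genes went both ways. Of 42 collagens and matrix glycoproteins 17 were called higher (40.5%, against 33.1% of all genes) and 13 lower (31.0%, against 35.0%). The median was 0.26, so these counts lay near those over all genes. Besides Fn1 and Spp1, Thbs2 rose by 5.78 (SE 0.49) and Sparcl1 by 4.75 (SE 0.61), while Col5a3 fell by 5.38 (SE 0.21). Thbs1, the thrombospondin gene, had 54865 and 46194 counts at day 3 and 39765 and 53292 at 0 h (adjusted p = 0.548). Among 31 proteases and inhibitors 9 were called higher (29.0%, against 33.1% of all genes) and 15 lower (48.4%, against 35.0%). Plau, the urokinase gene, had 6.6 and 4.47 CPM at day 3 against 184 and 199 CPM at 0 h (log2 fold change -5.11, SE 0.16, adjusted p = 2.59e-12). Mmp10, a stromelysin gene, had no counts at day 3 and 76 and 65 at 0 h, at least 48.8-fold lower, and Mmp9 was at least 5.89-fold lower. The plasminogen-linked inhibitor gene Serpinb2 fell by 7.82 (SE 0.79). Timp3, a metalloprotease inhibitor gene, rose by 2.99 (SE 0.18), with 19996 and 26933 counts at day 3 against 2466 and 3247 at 0 h.

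Actin cytoskeleton genes and targets of the serum response factor fell. Of 28 tested, 23 were called lower (82.1%) and 1 higher, Mylk at 1.49, with a median of -1.0. Actb, the cytoplasmic actin gene, had 76407 and 63483 counts at day 3 against 205479 and 222469 at 0 h (log2 fold change -1.68, SE 0.094, adjusted p = 1.01e-10). Tagln2 fell by 2.58 (SE 0.083), Actg2 by 1.92 (SE 0.16) and the crosslinker gene Flna by 0.77 (SE 0.099). The 2 day 3 libraries were below both 0 h libraries for each of these genes. YAP and TEAD targets were split, with 10 called higher (37.0%) and 10 lower (37.0%) of 27, near the 33.1% and 35.0% of all genes. Among them Myof fell by 1.41 (SE 0.091) and Amotl1 rose by 1.08 (SE 0.065).

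Stress genes divided by kind. Of 33 heat shock and endoplasmic reticulum (ER) stress genes 9 were called higher (27.3%) and 20 lower (60.6%). Over all genes the shares were 33.1% and 35.0%. The list's median was -0.6. Those that rose most belong to the ATF4 and CHOP branch of the stress response. Trib3, a pseudokinase gene, had 209 and 293 CPM at day 3 against 5.21 and 5.19 CPM at 0 h (log2 fold change 5.59, SE 0.27, adjusted p = 1.05e-07). Atf4 itself had 891 and 933 CPM at day 3 against 350.0 and 352 CPM at 0 h (log2 fold change 1.38, SE 0.089, adjusted p = 6.62e-10). Atf3 rose by 4.49 (SE 0.22) and Chac1, a glutathione-degrading enzyme gene, by 3.23 (SE 0.17), beside Ddit3, the CHOP gene, given above. The co-chaperone gene Dnajb9 was also called higher, at 1.12. The chaperone gene Hsp90ab1 fell by 0.6 (SE 0.071), and Hspa5, the ER chaperone BiP, had 18338 and 25874 counts at day 3 and 18919 and 21162 at 0 h (adjusted p = 0.602); without day 3 replicate 1 Hspa5 was called higher (0.34, adjusted p = 0.00444).

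Metabolic lists moved in different directions. Of 24 genes of the cholesterol list 19 were called lower (79.2%) and none higher, with a median of -1.18. Fdps, which makes the sterol precursor farnesyl diphosphate, had 6.73 and 5.46 CPM at day 3 against 23.6 and 33.3 CPM at 0 h (log2 fold change -2.22, SE 0.24, adjusted p = 1.83e-05), with no overlap. Sqle, the squalene epoxidase gene, had 127 and 106 CPM at day 3 and 126 and 149 CPM at 0 h (adjusted p = 0.159), in overlapping groups. Of 21 glycolysis genes 15 were called lower (71.4%) and 4 higher, with a median of -0.77; Ldha, the lactate dehydrogenase gene, fell by 1.9 (SE 0.089) and the pyruvate kinase gene Pkm by 1.41 (SE 0.097), while Eno2 rose by 2.82 (SE 0.21). Of 53 nuclear genes of oxidative phosphorylation 35 were called lower (66.0%) and 4 higher, but the median was only -0.37 and Atp5b fell by 0.55 (SE 0.083). Fatty acid oxidation genes went up, with 15 of 27 called higher (55.6%) and 1 lower, Acadl at -0.28, and a median of 0.52; upper-quartile scaling gave 22 and 0. Acot2, a mitochondrial thioesterase gene, rose by 4.7 (SE 0.21) and Acaa1a, a thiolase gene of peroxisomal oxidation, by 1.31 (SE 0.13). Fatty acid and triglyceride synthesis was split, with 10 called higher (34.5%) and 11 lower (37.9%) of 29. These shares were near the 33.1% and 35.0% of all genes. The median was 0.14, and 0.06 without 0 h replicate 1. Lpin1 rose by 2.71 (SE 0.21) and Lpin3 fell by 3.01 (SE 0.23).

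Lysosomal genes rose together. Of 37 tested, 34 were called higher (91.9%) and 1 lower, Gusb at -0.81, and the median was 1.12. Ctsd, the cathepsin D gene, had 21891 and 18944 counts at day 3 against 5818 and 8018 at 0 h (log2 fold change 1.51, SE 0.099, adjusted p = 7.36e-10). Psap, which encodes the saposin precursor, rose by 1.07 (SE 0.091), the progranulin gene Grn by 1.81 (SE 0.092) and Gaa, acid alpha-glucosidase, by 2.03 (SE 0.09). Summed over the list the level was 8850.0 and 8110.0 CPM at day 3 against 3780.0 and 3930.0 CPM at 0 h, with no overlap. Cd68, a lysosomal protein gene that was listed as a macrophage marker, rose by 1.98 (SE 0.26), while the macrophage markers Csf1r and Cd14 fell by 1.31 (SE 0.44) and 1.07 (SE 0.19).

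**Figure D5:**
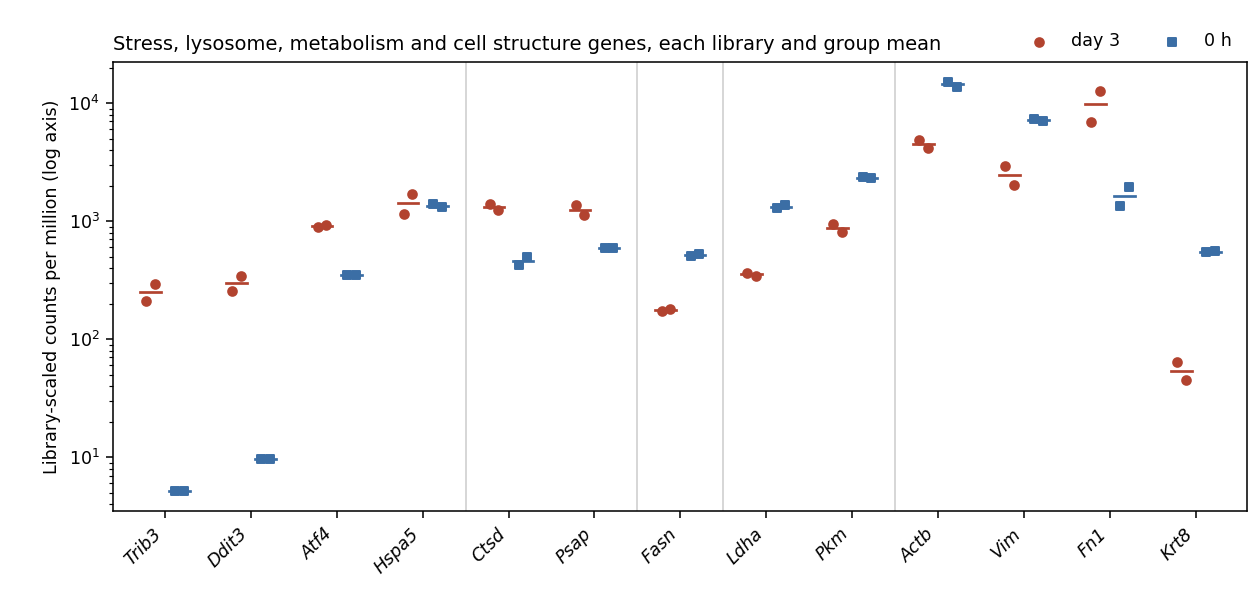
Library-scaled CPM on a log axis for 13 genes of stress, lysosome, lipid synthesis, glycolysis and cell structure, with day 3 libraries (red circles) left of 0 h libraries (blue squares) and a bar at each group's mean. Trib3, Ddit3, Atf4, Ctsd, Psap and Fn1 are higher at day 3, Hspa5 overlaps, and Fasn, Ldha, Pkm, Actb, Vim and Krt8 are lower.

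Interferon-stimulated genes called higher were near the share over all genes. Of 52 tested, 21 were called higher (40.4%, against 33.1% of all genes) and 5 lower (9.62%, against 35.0%), 26 were not called, and the median was 0.44, or 0.4 with few-count genes at their bounds. Without 0 h replicate 1, 14 of 54 were called higher with a median of 0.21, and without day 3 replicate 1, 15 were called higher and 10 lower. In the fit of only the 4 libraries compared, 14 were called higher. Irf7, a factor that amplifies interferon responses, had 2.41 and 1.58 CPM at day 3 against 0.0 and 0.309 CPM at 0 h (log2 fold change 3.52, SE 0.59, adjusted p = 8.37e-05). Isg15 rose by 0.95 (SE 0.31, adjusted p = 0.0137), a call lost without 0 h replicate 1 (adjusted p = 0.144). The antiviral genes Mx1 and Mx2 had 5 and 3, and 2 and 5, counts at day 3 and none at 0 h, and each lost its call with a library left out. B2m, the light chain of MHC class I, rose by 0.34 (SE 0.081). The sensor gene Cgas fell by 1.94 (SE 0.22) and the cytokine signalling inhibitor gene Socs1 by 1.76 (SE 0.21), and Ifnk had no counts in the 4 libraries. The letters GAAANNGAA, like an interferon response element, were in 14 of 49 promoters of these genes (28.6%), against 5.96% of promoters of tested genes and 7.13% of all.

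Signalling lists were mixed, read against 33.1% of all genes called higher and 35.0% called lower. In the ERK and ETS list 15 genes were called higher (48.4%) and 12 lower (38.7%) of 31. The early growth response genes Egr2 and Egr3 rose by 3.26 (SE 0.35) and 3.79 (SE 0.35). Il1rl1 had 3 and 2 counts at day 3 against 236 and 404 at 0 h. Among NF-kB targets, cytokines and chemokines 8 were called higher (30.8%) and 11 lower (42.3%) of 26. The monocyte chemokine genes Ccl2 and Ccl7 fell by 5.26 (SE 0.25) and 3.74 (SE 0.18), and Il6 rose by 3.75 (SE 0.63) on 30 and 29 counts at day 3 against 3 and 1 at 0 h. Of 32 Wnt pathway genes 14 were called higher (43.8%) and 9 lower (28.1%). The Wnt target gene Axin2 fell by 2.67 (SE 0.53) on 3 and 3 counts at day 3 against 17 and 21 at 0 h, the antagonist gene Dkk2 fell by 4.8 (SE 0.25), and Notum, which inactivates Wnt proteins, rose by 1.76 (SE 0.33). Of 19 Notch genes 9 were called higher (47.4%) and 4 lower (21.1%). Notch1 had 52.0 and 55.5 CPM at day 3 against 11.4 and 11.9 CPM at 0 h (log2 fold change 2.21, SE 0.11, adjusted p = 3.59e-11). Targets of Notch went both ways. Hey1, given above, rose by 2.6. Nrarp fell by 2.65 (SE 0.28), and Hey2 fell to 1 and 0 counts at day 3 against 22 and 24 at 0 h.

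Clustered protocadherin genes, which encode cell adhesion proteins best known from neurons, were higher as a family. Of 40 tested, 39 were called higher (97.5%) and none lower, with a median of 0.75. The 22 gamma members lay between 0.69 and 0.77. They share constant exons, so their counts are not separate and this may be 1 change counted many times. The 18 beta members, which are single-exon genes, gave 17 called higher and a median of 2.52, on 5 to 785 counts in day 3 replicate 1. Pcdhb15 had 58 and 55 counts at day 3 against 5 and 4 at 0 h (log2 fold change 3.56, SE 0.42, adjusted p = 1.25e-06), and Pcdhb20 rose by 3.21 (SE 0.31).

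Among the 15 largest rises were several genes outside the lists. Car6, a secreted carbonic anhydrase, had 133 and 223 counts at day 3 and none at 0 h, at least 114-fold higher. Prelp, a matrix proteoglycan, had 355 and 264 counts at day 3 against 1 and 0 at 0 h, a ratio of 596 (95% exact counting interval 107 to 23600.0). The methyltransferase gene Inmt had 317 and 397 counts at day 3 against 1 and 1 at 0 h, a ratio of 344 (94.8 to 2840.0). In each of the 3 the rise was present in both day 3 libraries. C1s1, a complement protease gene, had 83.3 and 74.7 CPM at day 3 against 0.22 and 0.989 CPM at 0 h (log2 fold change 6.94, SE 0.33, adjusted p = 3.31e-09). The retinal reductase gene Dhrs3 rose by 6.07 (SE 0.63), the potassium channel gene Kcnma1 by 6.8 (SE 0.33) and Phyhd1 by 6.63 (SE 0.18). Scara5, a ferritin receptor gene, had 176 and 194 counts at day 3 against 1 and 1 at 0 h, a ratio of 178 (49.0 to 1480.0). Genes with 0 to 3 counts at 0 h passed the filter only through times when they were higher.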

How the data were processed

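RNA from 12 libraries of MTΔECad cells was sequenced from 200 ng per sample; per the labels' protocols a stranded total RNA kit was used, and the labels also name poly-A+ RNA. The deposited values are raw read counts per Entrez gene, made by the authors. STAR and the mm10 build are named in the submitters' processing notes; for the aligner version, counting tool and annotation the entry is "not given in the sources used here". Of 17090 genes, 17045 were matched to RefSeq GRCm38.p6 names, 4 to GENCODE, and 41 were not matched.

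The counts of all 12 libraries were fitted together with edgeR 4.0.16 in R 4.3.3 (quasi-likelihood test, TMM scaling, time point as the only factor, 6 residual degrees of freedom), so that the spread between replicates is pooled over 6 time points. Genes were kept by a minimum count of 10 and a minimum total of 15, which left 12740 and removed 4350. P-values were adjusted by Benjamini-Hochberg over all genes tested and called below 0.05. Log2 fold changes are day 3 over 0 h with a prior count of 0.125. Each SE is the absolute log2 fold change divided by the square root of the F statistic of the quasi-likelihood test. It was not estimated by the fit itself, and with few counts in a group it can be smaller than counting error alone. Replicates come from independent experiments, and p-values measure the spread between these. With 0 counts in a group, a bound was taken against 3 counts over the group; with 1 to 3 counts, a ratio with its 95% exact interval, which covers counting error only.

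The members of the 36 gene lists (1224 distinct genes) were chosen with earlier results of these data known. Lists are given by counts and medians, with no set test. Genes named are 55 key genes, the 15 largest rises and 15 largest falls with a mean of at least 10 CPM and no overlap, and in each list the 4 most changed of its called members and the 2 with the most counts. Other genes that make up a count of 5 or fewer, and markers of other cell types, were named after their values were seen. Listed genes with no row in the table were not analysed here, and a few named genes are not reported here. Motifs were searched on both strands of the 250 bases before each start. Alternatives were median-of-ratios and upper-quartile scaling, no filter, DESeq2 1.42.0, a mean of 1 CPM as the filter, a prior count of 2, a replicate block, a fit of 4 libraries and leaving out each replicate. The fit was tested on simulated counts of 12424 genes. It recovered 67.2% of 67 genes changed 1.5-fold, 95.5% of 67 changed 2-fold and 98.5% of 66 changed 4-fold. Of 181 calls, 7 were of unchanged genes. Far fewer genes changed there than the 68.1% called here, so scaling under so wide a change was not tested.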

Additional observations from a re-analysis of the deposited data

How the results depend on the processing

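The 8682 genes called between day 3 and 0 h became 8679 with median-of-ratios scaling, 8786 with upper-quartile scaling, 8813 with no filter, 8383 with a filter at a mean of 1 CPM, 8033 with DESeq2 and 8152 with only the 4 libraries compared. With a library left out they ranged between 7705 and 8172. Same-numbered replicates of day 3 and 0 h did not deviate together (correlation -0.056), and those of 6 h and 0 h did so weakly (0.193). Whether replicates of the same number share an experiment cannot be told from these values. The replicate block gave 8748 calls, and 8762 between day 3 and 6 h. Of 233 named genes with a fit, 201 kept their direction and side of the threshold in every alternative run and 32 did not. The cause of these changes was not tested. Depth limits the genes with few counts in a group.

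Genes that changed sign were not called in the main test. With a library left out, the log2 fold change lay between -0.06 and 0.42 for Fabp4, -0.16 and 0.61 for Cdh1, -0.49 and 0.11 for Col1a1, -0.92 and 0.04 for Eng, and -0.21 and 0.34 for Hspa5. It lay between -0.01 and 0.03 for Msx1, -0.09 and 0.19 for Notch2, -0.22 and 0.14 for Tgfb2, -0.03 and 0.16 for Thbs1, and -0.01 and 0.31 for Twist1. For Tgfb2 it was also 0.08 with upper-quartile scaling and 0.0 with the 4 libraries alone.

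Of 72 counts of list members called higher or lower, 55 stayed within 1.5 times in every alternative. Of those called lower, BMP targets were 3 and became 5 without day 3 replicate 2, and TGF-beta genes were 8 and became 5 without replicate 2 of either time. Interferon-stimulated genes called lower were 5 and became 8 with no filter and 10 without day 3 replicate 1, interferon ligands and sensors were 5 and became 3 in 5 alternatives, and bone and cartilage genes were 5 and became 3 with the 1 CPM filter or the 4 libraries alone. Notch genes called lower were 4 and became 2, adipogenic factors 2 and became 1, leukocyte and endothelial markers 2 and became 1, muscle markers 5 and became 3, and fatty acid oxidation genes 1 and became 0. Of those called higher, oxidative phosphorylation genes were 4 and became 2, or 1 without 0 h replicate 1, lipid synthesis genes 10 and became 6 without 0 h replicate 1, and cyclin and Myc genes 1 and became 2 or 0. Actin genes called higher were 1 and became 2 or 3, endothelial markers 1 and became 0, and muscle markers 3 and became 1.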
